A study of Mus musculus with 4 samples.

Results

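The exoribonucleases of the Dis3 and Xrn families were examined in mouse testis with and without *Nef-sp*, a gene for another, testis-specific exoribonuclease. The 5 genes *Dis3*, *Dis3l*, *Dis3l2*, *Xrn1* and *Xrn2* were chosen by name and not by a measured value, though earlier results of these data were known. Each has a row among the 12415 genes with sense reads over exons, and all 5 were among the 10728 genes past the filter on low counts. The comparison asked whether the RNA level of any of these enzymes differed when *Nef-sp* was lost.

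Total testicular RNA was sequenced after removal of ribosomal RNA, in strand-specific libraries read for 50 cycles. The knockouts, *Nef-sp*-/-, carried on both alleles an out-of-frame deletion of 23 bp made with a Cas9 nickase and a pair of guide RNAs. The controls, *Nef-sp*+/-, were not wild type but carried the same deletion on a single allele. All mice were labelled C57Bl/6J and adult (P60), the labels name no treatment with an agent, and the mutant line came from founder females with this deletion mated to C57Bl/6J Rj males. There were 2 libraries per genotype, called knockouts and controls here, and the labels do not say that they came from separate animals, so the p-values measure the spread between these samples, which may be technical. In whole testis, fewer cells of a type and less RNA per cell cannot be told apart.

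Exoribonucleases shorten RNA from its ends. DIS3, DIS3L and DIS3L2 belong to the RNase II/RNB family and work from the 3′ end. DIS3 is a catalytic subunit of the nuclear exosome, and DIS3L takes its place in the cytoplasmic exosome. DIS3L2 acts without the exosome on RNA with a uridine tail. XRN1 and XRN2 work from the 5′ end on RNA with a 5′ monophosphate, XRN1 in the cytoplasm after decapping and XRN2 in the nucleus, where it takes part in transcription termination. Meiotic and post-meiotic germ cells make up the bulk of the adult testis and store many mRNAs before translating them.

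The libraries held 20659865 to 34442517 reads, of which 15815159 to 26618821 were exon sense reads. The 5 exoribonucleases took 11007 to 19576 of these. All 14 listed germ cell markers had a row, and their summed normalized counts were 353515 and 422713 in the controls against 426545 and 419954 in the knockouts. Of 7 marker lists, the summed level of 3 was lower in both knockouts, namely Leydig cells (7 of 7 markers with a row) with 16105 and 18533 against 19396 and 19577, peritubular and vascular cells (3 of 4) with 1094 and 1203 against 1252 and 1284, and blood (3 of 5) with 435 and 454 against 471 and 545. The lower Leydig cell sum was not shared by most of its markers. Of these, 2 of 7 were lower in both knockouts, as were 18.1% of all genes tested. The median log2 fold change of the 7 was 0.08 (range -0.35 to 0.18). An unadjusted p below 0.05 in edgeR was reached by 2 of the 7, beside 4.8% of all genes tested. Of the 3 peritubular and vascular markers, 2 were lower in both knockouts, beside 18.1% of all genes tested (median log2 fold change -0.16, range -0.65 to -0.07). Among the 3 blood markers, 1 was lower and 1 higher in both knockouts, beside 18.1% and 16.4% of all genes tested. Their median was -0.57 (range -0.75 to 0.23). An unadjusted p below 0.05 in edgeR was also reached by 1 of the 3 blood markers and 1 of 13 germ cell markers tested. Sertoli cell sums (4851 to 5438, 6 of 7 markers with a row) and macrophage sums (855 to 1009, 6 of 6) overlapped between genotypes. *Fshr*, *Cx3cr1* and *Cd14* were at 0 in at least 1 library, and of 5 epididymis markers *Crisp1* alone had a row, at 5.77 normalized counts in 1 knockout library and 0 in the rest. No marker of any list passed the threshold, and the part of these cell types in the values below was not tested.

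The targeted gene was read first. *Nef-sp* (2610020H08Rik) had 1843 and 1693 normalized exon counts in the controls and 407 and 497 in the knockouts, that is, counts scaled to a common library size. It fell by 1.97 on the log2 scale (SE 0.0921, adjusted p = 4.12e-06 by the quasi-likelihood test of edgeR), to 25.6% of the control level. It was the 1 gene called among the 10728 tested, a share of 0.00932%.

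None of the 5 exoribonucleases was called. Of them 0 passed an adjusted p of 0.05 in edgeR, 0 had an unadjusted p below 0.05, against 4.8% of all genes tested, and 0 were called by DESeq2. *Dis3* and *Dis3l* were lower in both knockouts than in both controls, as were 18.1% of all genes tested. *Dis3l2* was higher in both, as were 16.4%, and *Xrn1* and *Xrn2* overlapped between genotypes. Over all genes the median log2 fold change was -0.00022.

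*Dis3* (ENSMUSG00000033166, chr14:99475853-99498989 of mm9, minus strand) encodes a nuclease of the nuclear exosome. Its normalized exon counts were 2370 and 2390 in the controls and 2227 and 2214 in the knockouts. The groups did not overlap, and the replicates of each lay close together. The log2 fold change of knockouts over controls was -0.10 (SE 0.0577, 95% interval -0.23 to 0.03, adjusted p = 0.954), which is 93.3% of the control level with an interval of 85.4% to 101.9%.

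*Dis3l* (ENSMUSG00000032396, chr9:64154564-64189095, minus strand) encodes the nuclease of the cytoplasmic exosome and had the most reads of the 5. Its normalized exon counts were 8129 and 8368 in the controls and 8030 and 7822 in the knockouts. The groups did not overlap, but the lower control was near the higher knockout. The log2 fold change was -0.06 (SE 0.0579, 95% interval -0.19 to 0.07, adjusted p = 0.956).

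*Dis3l2* (ENSMUSG00000053333, chr1:88600379-88946672, plus strand), for the nuclease of uridylated RNA, was at 825 and 820 normalized exon counts in the controls and 865 and 879 in the knockouts. Both knockouts were the higher ones. The log2 fold change was 0.08 (SE 0.0656, 95% interval -0.06 to 0.23, adjusted p = 0.954), or 106.0% of the control level with an interval of 95.9% to 117.2%.

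*Xrn1* (ENSMUSG00000032410, chr9:95855179-95953446, plus strand), for the cytoplasmic 5′→3′ nuclease, had the fewest reads, 116 and 222 raw in the controls and 131 and 146 in the knockouts. Its normalized exon counts were 134 and 156 in the controls and 151 and 173 in the knockouts. The groups overlapped. The log2 fold change of 0.14 had the widest error of the 5 (SE 0.134, 95% interval -0.15 to 0.44, adjusted p = 0.956). Counting error alone was 9.28% in the library with its fewest reads, and the interval ran from 89.9% to 135.3% of the control level.

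*Xrn2* (ENSMUSG00000027433, chr2:146838732-146903736, plus strand), for the nuclear 5′→3′ nuclease, was at 1967 and 2051 normalized exon counts in the controls and 2096 and 1936 in the knockouts. The knockouts were the highest and the lowest of all. The log2 fold change was 0.0041 (SE 0.0645, 95% interval -0.14 to 0.15, adjusted p = 0.997).

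**Figure D1:**
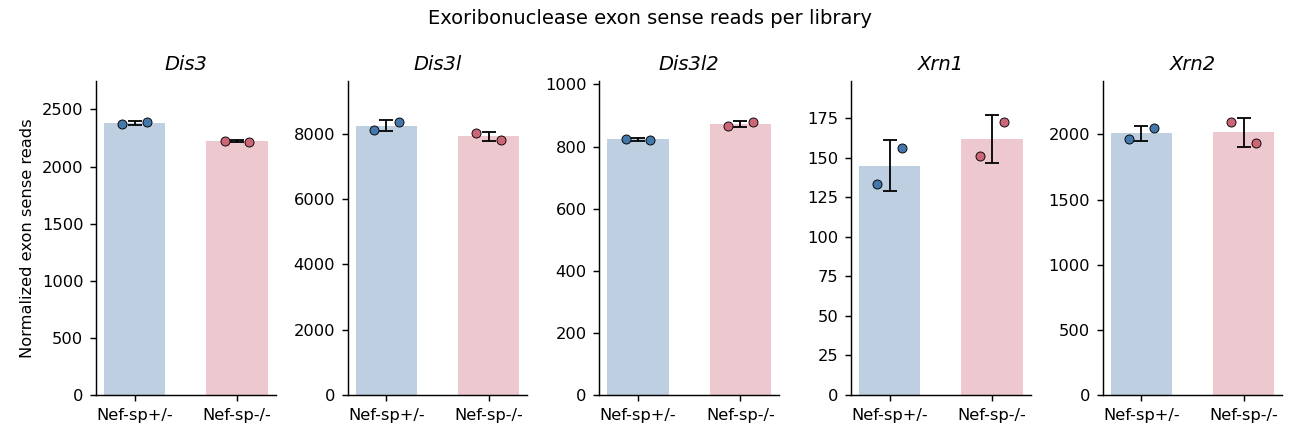
Normalized exon sense reads of the 5 exoribonucleases, 1 panel per gene with its own vertical axis from 0; points are libraries, bars are means and error bars are SDs (n = 2 per genotype). *Dis3* and *Dis3l* sit slightly lower and *Dis3l2* slightly higher in both knockouts, and the points of *Xrn1* and *Xrn2* overlap.

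**Figure D2:**
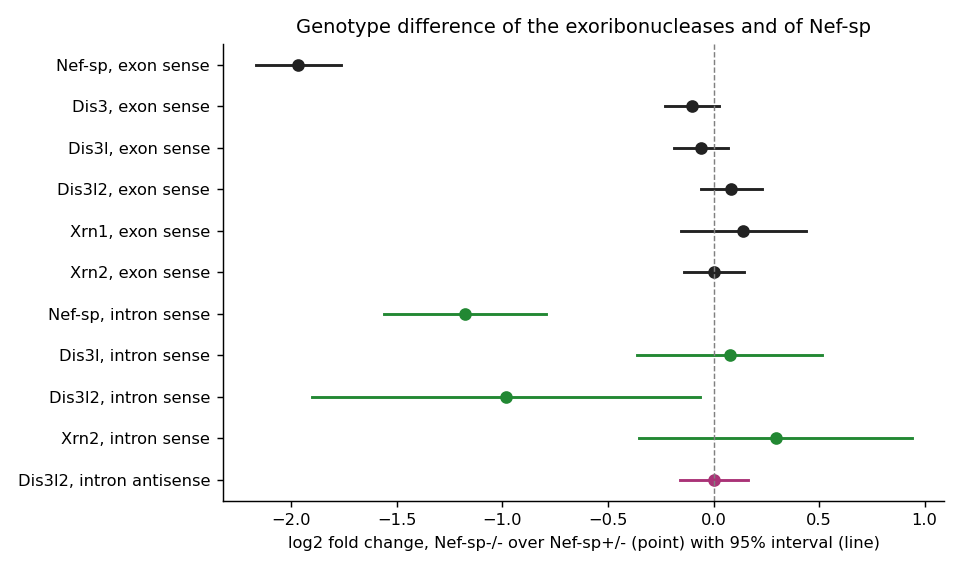
Log2 fold change of knockouts over controls (points) with 95% intervals from the edgeR fits (lines), for *Nef-sp* and each exoribonuclease tested in exon sense (black), intron sense (green) and intron antisense reads (purple). The exon interval of *Nef-sp* lies between -2.17 and -1.76, those of the 5 exoribonucleases all include 0, and the *Dis3l2* intron interval, -1.90 to -0.07, rests on 6 to 23 reads per library.

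Within a library, the ratio of reads of 2 genes needs no scaling factor. The log2 ratio of *Dis3l2* to *Dis3* reads was -1.52 and -1.54 in the controls and -1.36 and -1.33 in the knockouts, a difference of 0.18. The genotypes did not overlap, which follows from the lower *Dis3* and higher *Dis3l2* counts in both knockouts given above. How many gene pairs separate in this way was not counted. With 2 libraries against 2, an exact two-sided permutation test cannot go below p = 0.333, which is the value it gave. *Dis3l2* to *Dis3l* differed by 0.14 and *Dis3l* to *Dis3* by 0.04, each with the same exact permutation p of 0.333. These ratios share their genes with *Dis3l2* to *Dis3*, so the first 3 pairs are not independent of each other. *Xrn2* to *Xrn1* differed by -0.16, with an exact permutation p of 0.667 and overlapping libraries. The *Xrn2* to *Xrn1* difference rested on single libraries. It was -0.07 without *Nef-sp*+/- replicate 1 and -0.24 without *Nef-sp*+/- replicate 2. Without *Nef-sp*-/- replicate 1 it was -0.31, and without *Nef-sp*-/- replicate 2 it was -0.0048. Adjusted over the 4 pairs, the exact p-values were 0.444 for the first 3 pairs and 0.667 for the last.

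The exoribonucleases differed far more from each other than between genotypes. Levels between genes were compared as RPKM, exon sense reads per length of exon and depth, with TMM-scaled library sizes. *Dis3l* was highest at 79.6 ± 2.23 (SD over the 4 libraries), above 90.1% of the 9912 tested genes with a length. *Dis3* followed at 33.2 ± 1.34, *Xrn2* at 27.1 ± 0.997 and *Dis3l2* at 14.1 ± 0.485. *Xrn1* was lowest at 1.498 ± 0.158, above only 23.3% of genes, and *Dis3l* was 53.1-fold higher per length. The ranges of neighbours in this order did not overlap, but *Dis3* and *Xrn2*, 1.22-fold apart, did overlap when the length of the longest transcript was used in place of all annotated exons, so these 2 are not ordered beyond their spread.

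**Figure D3:**
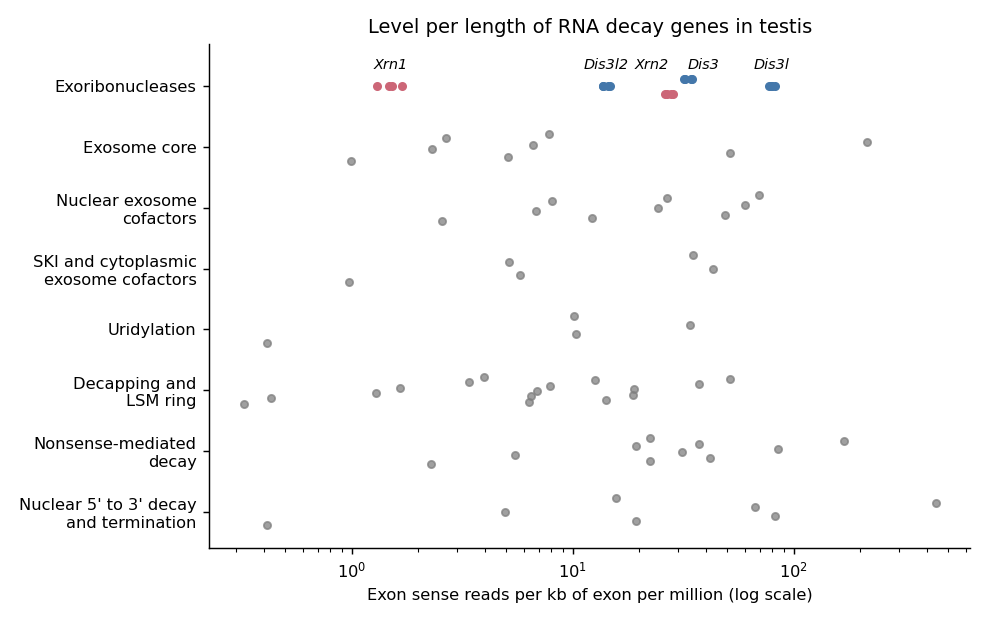
Levels in RPKM (exon sense reads per kb of exon, scaled by depth) on a log axis, for the exoribonucleases (top row, 1 point per library, Dis3 family in blue and Xrn family in red) and for the decay factors of 7 lists (grey, 1 point per gene, mean over libraries; vertical offsets only separate points). *Dis3l* lies between 77.0 and 82.3 and *Xrn1* between 1.30 and 1.69.

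Among 64 genes of RNA decay with a length, the 5 included, *Dis3l* ranked 6, *Dis3* 19, *Xrn2* 21, *Dis3l2* 32 and *Xrn1* 57. The genes nearest in level over the 4 libraries, by the root mean square difference of log2 levels, were *Cdkn2aip* (0.0566) and *Smg5* (0.108) for *Dis3l*, *Skic2* (0.0954) and *Tut1* (0.110) for *Dis3*, *Zcchc8* (0.0884) and *Exosc10* (0.181) for *Xrn2*, and *Lsm14b* (0.0946) and *Cpsf3* (0.171) for *Dis3l2*. For *Xrn1* they were *Lsm6* (0.209) and *Edc3* (0.321), at larger distances.

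Reads within the exons of these genes can be assigned to them. Every stretch of 50 bases inside an exon of the 5 genes occurred once in mm9, from 2106 stretches in *Dis3l2* to 4428 in *Dis3l*. Stretches that cross an exon junction of the longest transcript made up 21.7% in *Dis3l* to 41.9% in *Xrn2*, and a read across a junction has no unbroken match in the genome, while the study retained perfect genome matches alone. Genes on the opposite strand overlap an end of *Dis3* (*Pibf1*, 325 bp of exon) and of *Xrn1* (*Gm16794*, 184 bp), but the counts are by strand.

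Introns of the exoribonucleases gave few sense reads. Of the 5 genes, 3 passed the filter on low counts there, and 0 were called by edgeR or DESeq2, where 0.0294% of the 3403 genes tested were called. That share is *Nef-sp* alone, with a log2 fold change of -1.18 (SE 0.184, adjusted p = 0.0084). *Dis3* had 12 and *Xrn1* 11 intron reads over all libraries and were not tested. *Dis3l* was at 74.0 and 84.6 normalized intron counts in the controls and 101.2 and 68.2 in the knockouts, which overlapped (log2 fold change 0.08, 95% interval -0.36 to 0.52, adjusted p = 0.99957). *Xrn2* was at 22.4 and 19.1 in the controls and 25.0 and 25.3 in the knockouts, higher in both, as were 13.5% of genes (log2 fold change 0.29, 95% interval -0.35 to 0.94, adjusted p = 0.99957), and its log2 fold change was 0.15 without *Nef-sp*+/- replicate 2.

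*Dis3l2* had 13 and 23 raw intron sense reads in the controls and 6 and 8 in the knockouts, lower in both, as were 14.5% of genes. It passed the filter only through the controls, so that a difference was built into its being tested. Its log2 fold change was -0.98 (95% interval -1.90 to -0.07), with an unadjusted p of 0.0368, a level that 2.35% of genes reached, and an adjusted p of 0.99957 in edgeR. DESeq2 gave an unadjusted p of 0.22.

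As a share of the sense reads of each gene, introns made up 0.130% in *Dis3* (95% Wilson interval 0.0741% to 0.226%), 0.999% in *Dis3l* (0.897% to 1.11%), 1.46% in *Dis3l2* (1.11% to 1.92%), 1.76% in *Xrn1* (0.984% to 3.12%) and 1.10% in *Xrn2* (0.898% to 1.35%), pooled over the libraries. These intervals cover counting error only. The median was 1.06% over the 5520 genes with an intron sense row and at least 500 exon sense reads. Genes without an intron sense row were left out of it. *Dis3* lay below this median and the others near or above it. The share is not scaled for length, and introns span 19.4 kb in *Dis3* but 343 kb in *Dis3l2*. Per kb, exon reads were 4022 times the intron reads in *Dis3* and 7183 times in *Dis3l2*. This factor was 528 in *Dis3l*, 943 in *Xrn1* and 1375 in *Xrn2*. The share of *Dis3l2* was 1.86% ± 0.110 (SD, n = 2) in the controls and 0.930% ± 0.191 (SD, n = 2) in the knockouts, with an exact permutation p of 0.333, the smallest possible. For the other 4 genes the libraries of both genotypes overlapped, with exact p-values of 0.667 or 1, and adjusted over the 5 genes every p was 1.

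The introns of *Dis3l2* carried many reads from the opposite strand. Intron antisense reads numbered 1538 and 2381 in the controls and 1526 and 1466 in the knockouts, which is 138 times its intron sense reads and 2.05 times its exon sense reads over all libraries. This placed *Dis3l2* at rank 64 of 2754 genes with intron antisense reads. Normalized, the counts were 1793 and 1679 in the controls and 1757 and 1713 in the knockouts, which overlapped (log2 fold change 0.00077, 95% interval -0.16 to 0.16, adjusted p = 0.998). Of the 1421 genes tested for intron antisense reads, 0% were called by edgeR and 0 by DESeq2, and 64, or 4.5%, had an unadjusted p below 0.05.

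An intron of *Dis3l2* holds on its minus strand the pseudogene *Gm6136* (ENSMUSG00000084106, chr1:88805337-88806264 of mm9, 928 bp), a copy of *Rpl6*, which encodes a protein of the large ribosomal subunit. The 928 bases aligned to the *Rpl6* transcript with 924 identical bases and 4 mismatches. To show how near the copies are, 61 bases around 1 of these mismatches are given below 5′ to 3′, from *Rpl6* with its coding position 489 in the centre and from *Gm6136* at chr1:88805740-88805800, minus strand; the capital marks the base that differs.
Rpl6: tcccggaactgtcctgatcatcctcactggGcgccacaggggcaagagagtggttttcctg
Gm6136: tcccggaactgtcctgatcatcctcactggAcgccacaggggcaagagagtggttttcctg
Of the 879 stretches of 50 bases in *Gm6136*, 679, or 77.2%, also stand in the *Rpl6* transcript. In the genome 717 occur more than once, in up to 8 copies, and 162 occur once. The genome holds no spliced transcripts, and how many of the 162 stand in that of *Rpl6* was not counted. The table has no row for *Gm6136*. *Rpl6* itself had 781 and 1201 exon sense reads in the controls and 704 and 745 in the knockouts, and the *Dis3l2* intron antisense reads were 1.97 to 2.17 times as many in each library. How reads with several matches were counted is not given in the sources used here, so that the antisense reads of *Dis3l2* introns cannot be assigned to this locus from the counts.

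**Figure D4:**
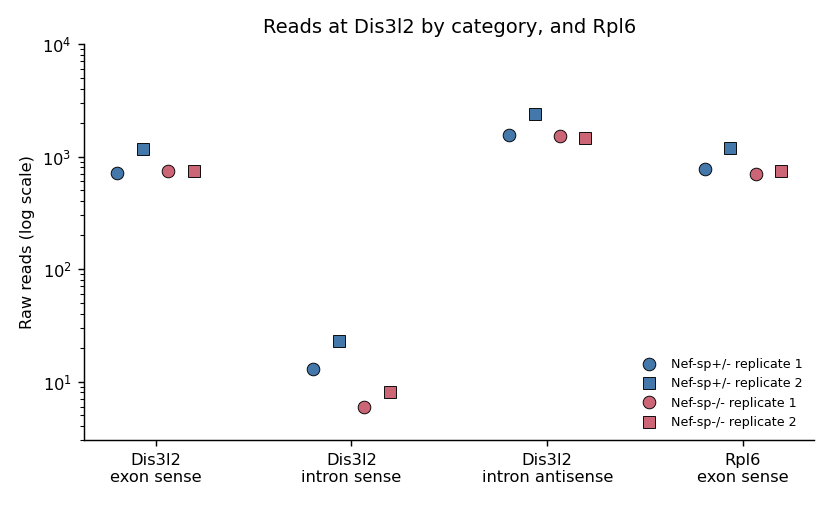
Raw reads of *Dis3l2* by category and strand, with *Rpl6* exon sense reads beside them, on a log axis; each point is a library, controls in blue and knockouts in red. In all 4 libraries the intron antisense reads exceed both the exon sense reads of *Dis3l2* and those of *Rpl6*, and the intron sense reads number 6 to 23.

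The partners of the 5 enzymes were taken from 7 lists of decay factors with 66 genes, of which 64 had a row and 62 were tested. None was called by edgeR or DESeq2, and 3 of the 62 had an unadjusted p below 0.05, beside 4.8% of all genes tested. The median log2 fold change was -0.0021, and 58 of 62 differed by less than 0.25 in either direction. The list medians below are all close to 0, and those of 5 of the 7 lists changed sign when a library was left out. Genes given with values below were picked for the smallest unadjusted p of their list in edgeR. *Skic2*, *Skic8*, *Tut4*, *Smg9* and *Dxo* stand in the table as *Skiv2l*, *Wdr61*, *Zcchc11*, *1500002O20Rik* and *Dom3z*.

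Of the 9 subunits of the exosome core, to which DIS3 and DIS3L attach, 0 were called and the median log2 fold change was 0.02. *Exosc1*, a subunit of its cap, was at 247 and 263 normalized exon counts in the controls and 224 and 211 in the knockouts (log2 fold change -0.24, unadjusted p = 0.0413, adjusted p = 0.954 in edgeR). *Exosc2*, also of the cap, gave 0.19 and *Exosc6*, of the ring, -0.34. Of the 10 nuclear exosome cofactors tested, *Exosc10* among them, 0 were called (median -0.01). *Zcchc8*, a scaffold of a nuclear targeting complex, gave -0.11, *Zcchc7* 0.11 and *Mphosph6* 0.13. Of the 5 SKI complex and cytoplasmic cofactors, which serve the cytoplasmic exosome, 0 were called (median 0.06), with 0.08 for *Hbs1l*, 0.11 for *Pelo* and 0.06 for *Skic8*.

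Of the 4 uridylation genes tested, listed because DIS3L2 recognises uridine tails, 0 were called (median 0.03). *Lin28b*, which binds let-7 precursors, was at 62.1 and 62.7 normalized exon counts in the controls and 75.1 and 79.3 in the knockouts (log2 fold change 0.30, adjusted p = 0.954 in edgeR). The terminal uridylyltransferases *Tut1* and *Tut4* gave 0.05 and -0.02.

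For XRN1, the partners are the decapping factors and the cytoplasmic LSM ring. Of 17 tested, 0 were called (median 0.0028). *Lsm4* was at 1059 and 1058 normalized exon counts in the controls and 963 and 906 in the knockouts (log2 fold change -0.18, unadjusted p = 0.0210), and *Lsm1* was at 292 and 265 against 350 and 304 (log2 fold change 0.24, unadjusted p = 0.0415). Both had an adjusted p of 0.954 in edgeR, and these 2 subunits of the ring pointed in opposite directions. The helicase gene *Ddx6* gave -0.14. Of 10 genes of nonsense-mediated decay, 0 were called (median -0.02), with -0.12 for the helicase gene *Upf1*, -0.11 for *Smg9* and 0.09 for the kinase gene *Smg1*. Of 7 tested genes of nuclear 5′→3′ decay and termination, the setting of XRN2, 0 were called (median -0.0078). *Dxo*, which removes faulty caps, gave -0.07 and the termination factor gene *Ttf2* 0.17.

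**Figure D5:**
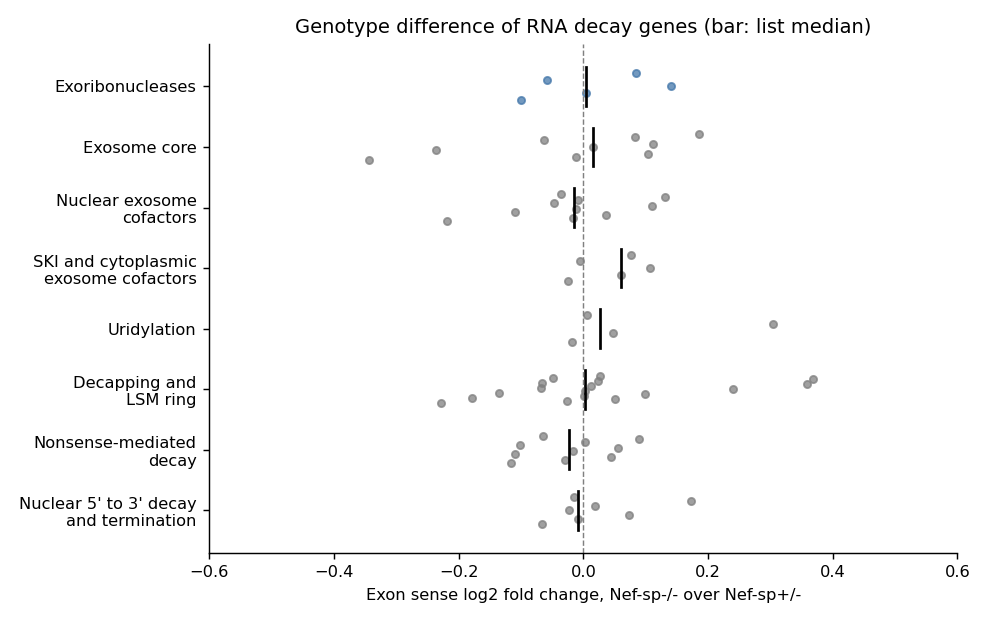
Exon sense log2 fold change of knockouts over controls for the 5 exoribonucleases (blue) and each tested gene of the 7 lists of decay factors (grey); the black bar is the median of each row, and vertical offsets only separate points. The 62 decay factors lie within 0.37 of 0 in either direction.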

How the data were processed

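Strand-specific total RNA libraries of *Nef-sp*-/- and *Nef-sp*+/- testis were grouped by their labels. Using in-house tools, the authors aligned reads to mm9, retained those without mismatches and deposited raw counts per feature, annotation category and strand; tool versions and how multiply matching reads were treated are not given in the sources used here. The authors also deposited a mean normalized signal, the log2 fold change and p-values of their DESeq2 comparison, which were not used.

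Counts were tested with edgeR 4.0.16 in R 4.3.3 (quasi-likelihood, TMM, filterByExpr with a minimum count of 10), 1 fit per category over all its features, with Benjamini-Hochberg adjustment within the category and a threshold of 0.05. The fit was also run on simulated counts, and the share of false calls there is not reported here. Intervals of log2 fold changes came from their standard errors. Normalized counts were scaled to the mean effective library size. Levels used exon lengths of GENCODE vM1, matched for 11414 of 12415 genes, and 50-base stretches were searched in mm9. DESeq2 1.42.0 and other settings were alternatives. Within-library ratios and intron shares were compared by exact permutation tests. Current symbols were matched to those of the table by the symbol or a listed older symbol, and otherwise through RefSeq synonyms.

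The genes and lists were chosen with earlier results of these data known. Named are the 5 exoribonucleases and *Nef-sp*, in each decay list the 3 genes with the smallest p (1 of them is not reported here), for each exoribonuclease the 2 decay genes nearest in level, and markers at 0; *Gm6136*, *Rpl6*, *Pibf1* and *Gm16794* were added after values were seen. Depth was 20659865 to 34442517 reads per library. Figures were drawn with matplotlib 3.10.9.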

Additional observations from a re-analysis of the deposited data

How the results depend on the processing

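None of the 5 exoribonucleases was called under any alternative: the size factors of DESeq2, library size over all categories, no filter or a filter on every library, DESeq2, the replicate block, 1 fit for all categories together, and each library left out. Their adjusted p in exon reads was between 0.741 and 0.99997. *Dis3*, *Dis3l*, *Dis3l2* and *Xrn1* kept their direction. *Xrn2* had a log2 fold change of -0.019 with library size and -0.0044 in the single fit, and -0.054 to 0.064 with a library left out. *Xrn1* ranged from 0.047 to 0.28 with a library left out.

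Exon genes called were 2 by DESeq2 without and with its prior, and 1 to 252 with a library left out, the highest without *Nef-sp*+/- replicate 2 and 41 without *Nef-sp*+/- replicate 1. Intron genes called were 0 with library size, no filter, DESeq2 and the single fit. *Nef-sp* was then no longer called, with log2 fold changes of -1.16, -1.19, -1.19 (-0.70 with a prior) and -1.14. Intron antisense genes called were 0 to 3 with a library left out, 3 without *Nef-sp*+/- replicate 2. In the nuclear 5′→3′ list 0 to 1 genes were called with a library left out, 1 without *Nef-sp*+/- replicate 1. The cause was not tested. The *Dis3l2* intron antisense log2 fold change was -0.0020 with library size, -0.00014 and -0.00011 by DESeq2 without and with its prior, and -0.050 to 0.050 with a library left out. For *Dis3l* introns it was -0.24 to 0.34 and for *Xrn2* introns 0.15 to 0.38 with a library left out. List medians were then -0.01 to 0.03 for the exosome core, -0.03 to 0.0057 for nuclear cofactors, 0.02 to 0.08 for SKI, 0.02 to 0.09 for uridylation, -0.03 to 0.06 for decapping, -0.08 to 0.01 for nonsense-mediated decay and -0.03 to 0.02 for the nuclear 5′→3′ list. Ratio differences were 0.03 to 0.06 for *Dis3l* to *Dis3*, 0.17 to 0.20 for *Dis3l2* to *Dis3* and 0.11 to 0.17 for *Dis3l2* to *Dis3l*. The intron share difference with a library left out was -0.045 to 0.083 percentage points for *Dis3*, -0.013 to 0.27 for *Dis3l* and -0.85 to 1.43 for *Xrn1*.

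Levels in RPKM depended on the length used. With the longest transcript they were 118.6 for *Dis3l* and 31.5 for *Xrn2*, and with unique stretches, added after the data were seen, 98.1 for *Dis3l*, 45.9 for *Dis3*, 42.1 for *Xrn2*, 21.6 for *Dis3l2* and 2.39 for *Xrn1*.

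Replicate numbers are shared between genotypes, but the labels do not say what they mark, and deviations of same-numbered libraries correlated at -0.09 in exon, -0.13 in intron sense and -0.11 in intron antisense reads. With the replicate block, the log2 fold changes were -0.10 for *Dis3*, -0.06 for *Dis3l*, 0.08 for *Dis3l2*, 0.16 for *Xrn1*, 0.0033 for *Xrn2* and -1.4e-05 for *Dis3l2* intron antisense, with 1 exon gene and 1 intron gene called. With the numbers crossed, added after the data were seen, 99 exon genes and 2 intron genes were called.

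In the library with the fewest reads, counting error was 40.8% for *Dis3l2*, 22.4% for *Xrn2* and 12.7% for *Dis3l* introns, and among exons 9.28% for *Xrn1*. Introns of *Dis3* and *Xrn1* had 12 and 11 reads in all. A group of 2 libraries has no test for an outlying library.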
